A study of Mus musculus with 16 samples.

Results

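The genes described here encode carriers that move amino acids and related small molecules across cell membranes. They were taken as all genes whose symbol begins Slc1a, Slc3a, Slc6a, Slc7a, Slc36a, Slc38a or Slc43a followed by a number. Each gene was read from the probe set with a single gene symbol and the highest mean signal, and was kept where that signal lay above log2 6 on at least 1 of 16 arrays. The rule matched 63 symbols and kept 37 genes out of 30102 on the arrays. These were 36 transporter genes and Slc7a6os, a gene on the opposite strand beside Slc7a6 that matched only by the letters of its symbol and is counted apart. The remaining 26 transporter genes stayed at or below the level of 6 on all 16 arrays, with highest signals from 2.51 (Slc7a12) to 5.95 (Slc1a6). They included the heavy chain gene Slc3a1, the glycine transporter gene Slc6a5, the serotonin transporter gene Slc6a4 and the glial glutamate transporter gene Slc1a2. Slc36a4 (highest signal 6.03) and Slc6a3 (6.06) lay just inside the level, and Slc1a6 (5.95) and Slc6a16 (5.93) just outside it. Of the 36 kept transporter genes 26 lay above the level on all 16 arrays and 10 on some of them. Some of the 10 were kept through 1 class or condition alone: Slc38a5 exceeded 6 on all 6 arrays of lines without the coiled coil and on none of the other 10, and Slc7a11 on 7 arrays with LIF and on none without it. Slc36a4, Slc6a3 and Slc7a4 exceeded it on 1 array each. Counts over the kept genes are therefore descriptions, and the same counts over all 57 matching transporter genes that could be tested, whatever their level, are given beside them.

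The 16 arrays covered 8 lines of mouse embryonic stem cells (ESCs). Each line gave 1 sample with leukaemia inhibitory factor (LIF), the cytokine that sustains self-renewal of mouse ESCs, and 1 after 12 days without LIF. EBRTcH3, from a male mouse of strain 129SV, was the wild type, and the other 7 lines derived from it. Those 7 lines were null for Mbd3, which encodes a subunit of the NuRD nucleosome remodelling and deacetylase complex, and each carried a stably introduced vector. The vectors encoded MBD3a, MBD3b, MBD3c, MBD3a with the methyl-CpG-binding domain removed (MBD-deleted), MBD3a with the coiled coil removed (coiled-coil-deleted), MBD3a with both removed (doubly deleted), or no protein (empty vector). The lines that retained a coiled coil were EBRTcH3, MBD3a, MBD3b, MBD3c and MBD-deleted (5 lines). The empty vector, coiled-coil-deleted and doubly deleted lines lacked it (3 lines). Neither the promoter of the vectors nor the number of clones behind a line is stated in the labels. The labels name no second culture of a line in either condition, so the lines served as replicates of their class. The p-values below therefore set a mean change or difference against the spread between lines, and all lines shared a parent. In tests over the 8 lines that spread includes differences between the classes.

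Signals on the 16 arrays ran from 0.98 to 14.21 on the log2 scale, with array medians from 4.72 to 4.85. Mbd3 had a signal of 7.00 with LIF and 7.45 without it in the empty vector line, against 8.45 to 9.59 on the 14 arrays of the other lines. The mean signal of 10 ESC marker genes was 10.23 to 10.61 in retaining lines with LIF and 10.21 to 10.39 in lacking lines with LIF. Without LIF it was 9.17 to 9.52 in retaining lines and 9.67 to 9.82 in lacking lines. Over the 8 lines 8 of these 10 markers fell (limma, adjusted p under 0.05), against 9.89% of all tested genes. Dppa3 rose by 1.09 (limma, adjusted p = 0.0103). In RNA from a whole culture, fewer cells of a type and less RNA per cell cannot be told apart.

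Amino acid transporters fall into families with different couplings. The light chains of the Slc7 family reach the membrane bound to a heavy chain, Slc3a2 (CD98), and exchange an amino acid inside the cell for another outside it. Slc1, Slc6 and Slc38 carriers use the sodium gradient to concentrate glutamate, glutamine, glycine and other neutral amino acids, Slc36 carriers use protons, and Slc7a1 and Slc7a3 carry arginine and lysine. When amino acids run short, the kinase GCN2 raises translation of the transcription factor ATF4, which with C/EBP partners activates transporter genes such as Slc7a11, Slc7a5, Slc3a2, Slc1a5 and Slc38a2 together with genes of amino acid synthesis. Not every member carries amino acids of proteins: Slc6a3 is the dopamine transporter, Slc6a6 carries taurine, Slc6a8 creatine and Slc6a13 GABA, and Slc43a3 is known as a purine nucleobase transporter. Mouse ESCs are known for their high demand for threonine, glycine and glutamine.

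Promoter sequences are shown for the members around which the results turn, from the RefSeq promoter table of build GRCm38.p6, which held 40 promoters of 26 of the 37 members. Slc7a11 is printed because it fell after LIF withdrawal together with ATF4 target genes, and Slc38a5 and Slc1a1 because they differed most between the classes of line. Each stretch is the 120 bases before the start of the gene, 5′ to 3′ on the strand of the gene, and capitals mark matches to the core of the C/EBP-ATF response element, TGATGNAA, searched on both strands.

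Slc7a11 (chr3:50443614-50443733, minus strand): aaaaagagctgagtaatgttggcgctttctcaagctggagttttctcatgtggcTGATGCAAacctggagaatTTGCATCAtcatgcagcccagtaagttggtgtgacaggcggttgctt
Slc38a5 (chrX:8271261-8271380, plus strand): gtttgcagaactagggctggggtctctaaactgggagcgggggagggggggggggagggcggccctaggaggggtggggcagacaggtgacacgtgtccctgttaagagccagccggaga
Slc1a1 (chr19:28835015-28835134, plus strand): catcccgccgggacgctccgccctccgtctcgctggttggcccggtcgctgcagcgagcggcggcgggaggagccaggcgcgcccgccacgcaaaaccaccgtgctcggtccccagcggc

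The 2 matches in Slc7a11 began at positions -66 (forward) and -47 (reverse) relative to the start. The core was also present in the promoters of Slc1a4 and Slc7a7, which are shown as 30 bases around the match, each reaching past a start of the gene. Slc7a7 has several starts in the table: the printed site also lies in the promoter of another start, at -243. A further match, TGATGAAA, lies at -141 in the promoter of the start that the printed site reaches past.

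Slc1a4 (chr11:20332699-20332728, minus strand): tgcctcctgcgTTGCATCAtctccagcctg
Slc7a7 (chr14:54417927-54417956, minus strand): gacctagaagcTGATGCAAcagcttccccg

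In windows of 250 bases before and 50 bases after each start, 4 of the 40 promoters of members (10.0%) and 3 of the 26 members held this core, against 1304 of all 32851 promoters of the table (3.97%) and 4.51% of its genes. The 4 promoters were 1 each of Slc7a11 and Slc1a4 and 2 overlapping ones of Slc7a7. The core of the antioxidant response element, TGACNNNGC, lay in 9 of the 40 promoters (22.5%) and 7 of the 26 members, against 4071 of all promoters (12.4%) and 14% of genes. The 7 were Slc36a1, Slc38a2, Slc43a1, Slc6a13, Slc6a9, Slc7a1 and Slc7a6, and no member held both cores. A match is a description of the letters in the window and no evidence of binding.

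Over the 8 lines, LIF withdrawal changed 17 of the 36 transporter genes (limma, adjusted p under 0.05): 9 rose (25%) and 8 fell (22.2%), where 15.1% of all 22872 tested genes rose and 9.89% fell. The purine carrier gene Slc43a3, the light chain gene Slc7a8 and the neutral amino acid carrier gene Slc6a15 rose most, and the glutamate transporter gene Slc1a1, the cystine exchanger gene Slc7a11 and the glycine transporter gene Slc6a9 fell most. In the retaining lines 13 rose (36.1%) and 9 fell (25%), against 21.3% and 14.5% of all tested genes. In the lacking lines 2 rose (5.56%) and 8 fell (22.2%), against 1.71% and 1.22%. The absolute change had a median of 0.42 log2 over the 36 genes in the retaining lines, beside 0.19 over all tested genes, and of 0.23 in the lacking lines, beside 0.12. Over all 57 tested transporter genes 11 rose and 10 fell over the 8 lines (19.3% and 17.5%), 16 and 10 in the retaining lines (28.1% and 17.5%), and 2 and 8 in the lacking lines (3.51% and 14%). The direction was the same in all 8 lines for 14 of the 36 genes, 8 of which were higher and 6 lower without LIF. This was not counted over all tested genes, so it only describes the 36.

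The calls in the lacking lines rest on 3 lines and on a spread estimated over all 8 lines. Without the empty vector line or without the doubly deleted line 3 of these 10 calls were left, and without MBD3b or without the coiled-coil-deleted line 6. Of the 22 genes called in the retaining lines and the 10 called in the lacking lines, 7 moved in the same direction, which is 31.8% of the former and 70% of the latter. Over all tested genes the shared calls were 5.28% of those in the retaining lines and 64.5% of those in the lacking lines. Slc38a5 was called in both with opposite signs.

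**Figure D1:**
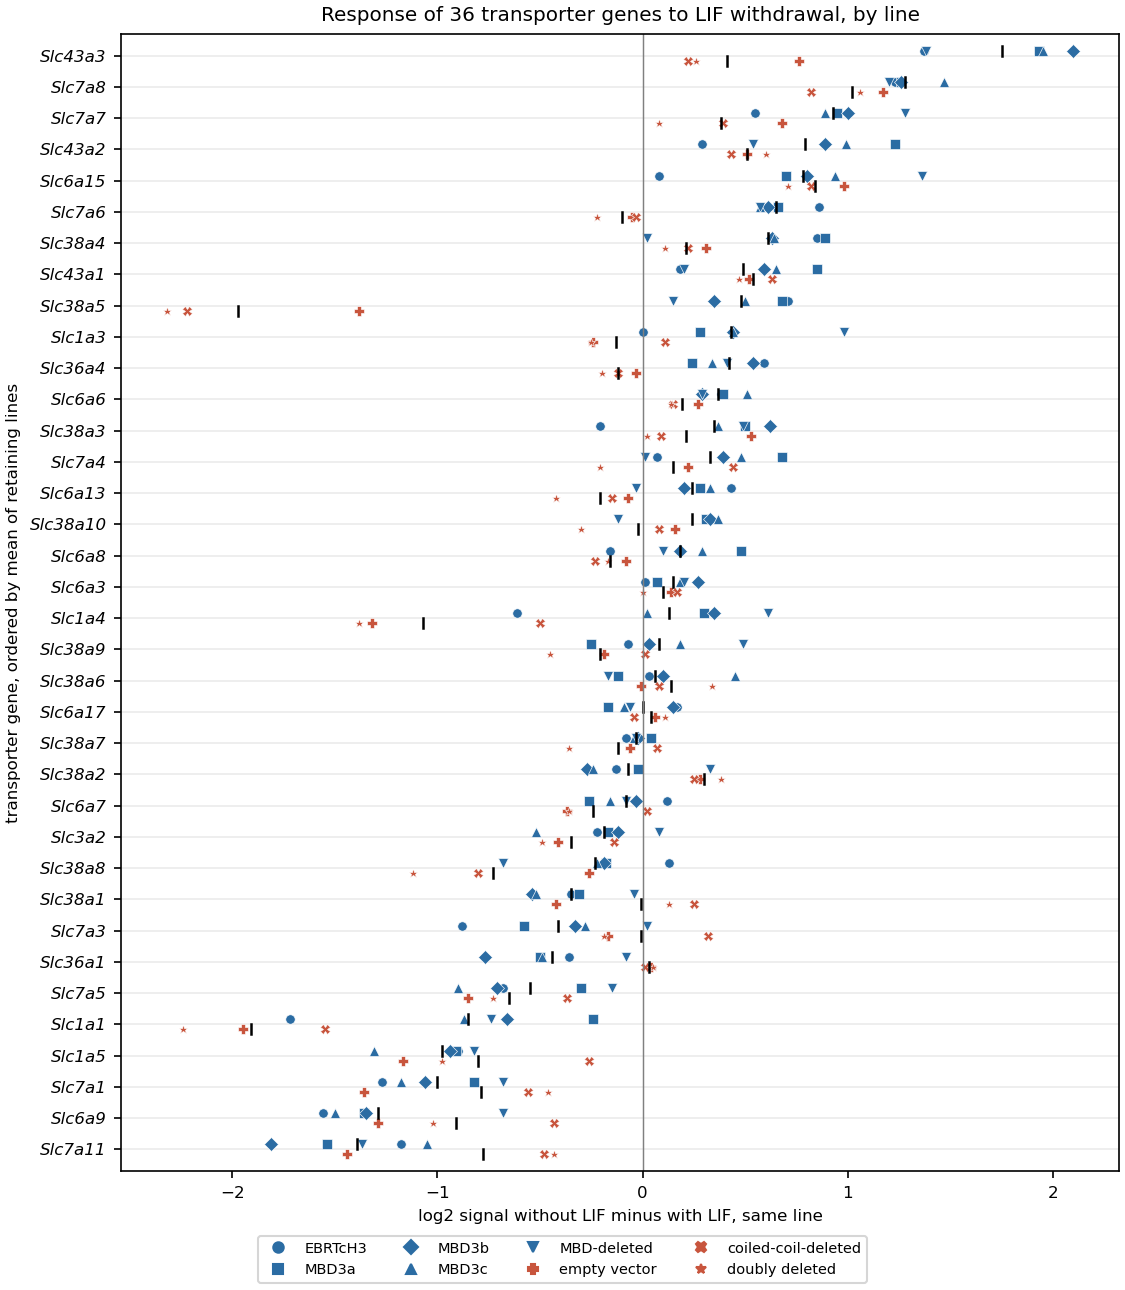
Change in log2 signal from culture with LIF to culture without it for the 36 transporter genes, 1 point per line; blue points are the 5 lines that retained a coiled coil, red points the 3 that lacked it, and black ticks the mean of each class. Slc43a3, Slc7a8 and Slc7a7 lie to the right and Slc7a11, Slc6a9 and Slc7a1 to the left in all 8 lines, whereas Slc38a5 lies at 0.15 to 0.71 in retaining lines and at -1.38 to -2.32 in lacking lines.

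In culture with LIF, 8 transporter genes were higher in the lacking lines (22.2%) and 3 lower (8.33%), against 7.65% and 6.48% of all tested genes. Slc38a5, Slc1a1, Slc38a8 and Slc7a6 differed most, each by more than 1 log2 unit and with no overlap between the classes. Without LIF, 7 were higher in the lacking lines (19.4%) and 2 lower (5.56%), against 8.55% and 12.4% of all tested genes. There the largest difference was in Slc1a4, lower by 1.46, followed by Slc38a5, Slc38a8 and Slc1a1. The response to LIF withdrawal itself differed between the classes for 6 genes, all of them more negative in the lacking lines (16.7%), and for none in the other direction (0%), against 7.9% and 4.17% of all tested genes. At an unadjusted p under 0.05 limma gave 11 and 3, and with array weights 12 and 6 passed after adjustment. The 6 were Slc38a5, Slc43a3, Slc1a4, Slc1a1, Slc7a6 and Slc36a4, of which Slc38a5 and Slc36a4 were kept through arrays of lacking lines alone. Over all 57 tested transporter genes 9 were higher and 3 lower with LIF (15.8% and 5.26%), 7 and 2 without it (12.3% and 3.51%), and 7 responses were more negative (12.3%).

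The number of differences with LIF moved from 11 to 7 without the coiled-coil-deleted line. The number of response differences moved from 6 to 10 without the MBD-deleted line and to 3 without the doubly deleted line. The differences of Slc38a5, Slc43a3 and Slc7a6 passed with each of the 8 lines left out in turn. That of Slc38a5 is a description, since the gene was kept through the lacking lines alone. Markers of some other cell types moved with the same contrasts. Of all tested genes 7.65% were higher and 6.48% lower in the lacking lines with LIF, and 8.55% and 12.4% without it. With LIF, 6 of 9 tested trophoblast markers were higher in the lacking lines, with a mean signal over 9 genes of 6.30 to 6.82 in retaining lines and 7.12 to 7.52 in lacking lines. Without LIF, 1 of the 9 was higher and 5 lower in the lacking lines, with a mean signal of 8.39 to 9.67 in retaining and 7.91 to 8.12 in lacking lines. The mean of 10 smooth muscle and mesenchyme markers was 6.83 to 7.10 in retaining lines without LIF and 5.80 to 6.10 in lacking lines. Of 6 formative epiblast markers 5 rose over the 8 lines, with a median change of 1.78, where 15.1% of all tested genes rose. In lacking lines 3 of the 6 were higher with LIF and 4 lower without it. Where 7.9% of all tested genes had a more negative response in lacking lines, 5 of these 6 markers did. Their mean signal with LIF was 7.34 to 7.72 in retaining and 7.81 to 7.90 in lacking lines, and without LIF 9.20 to 9.53 and 8.49 to 8.74. Of 7 tested endoderm markers 1 was higher and 1 lower in lacking lines in each condition. Among 8 tested neuron and glia markers 3 were lower there with LIF, and 1 was higher and 1 lower without it. The part of these cell types in the transporter results was not tested.

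The sample titles are numbered in a first run (EBRTcH3, MBD3a, MBD3b, MBD3c and empty vector) and a second run (MBD-deleted, coiled-coil-deleted and doubly deleted), so the empty vector line is the only lacking line of the first run and MBD-deleted the only retaining line of the second. The within-run values are given with no test. With LIF the class difference within the first and second run was 3.20 and 3.58 for Slc38a5, 1.71 and 2.37 for Slc1a1, 1.44 and 1.18 for Slc38a8, and 1.25 and 1.00 for Slc7a6. It was less even for Slc6a9 (-0.25 and -1.31), Slc6a15 (-0.78 and -0.21), Slc6a8 (0.41 and 0.99), Slc43a3 (0.56 and 1.06), Slc7a3 (-0.42 and -0.77) and Slc7a8 (0.40 and 0.66), and 0.69 and 0.57 for Slc7a7. Without LIF that of Slc1a4 was -0.98 and -2.09, and that of Slc1a1 0.64 and 1.21. The difference in response within the first and second run was -1.94 and -2.42 for Slc38a5, -1.08 and -1.14 for Slc43a3, -1.34 and -1.55 for Slc1a4, -1.08 and -1.16 for Slc1a1, -0.73 and -0.70 for Slc7a6 and -0.46 and -0.57 for Slc36a4. The sign was the same within each run for all of these. With the run as a covariate the calls of Slc6a9 (adjusted p = 0.0667), Slc6a15 (0.0749) and Slc7a8 (0.0641) with LIF, of Slc7a8 (0.0886) and Slc6a3 (0.0961) without it, and of the response difference of Slc1a1 (0.0755) were lost. The rises of Slc6a15 in lacking lines (0.0602) and of Slc38a3 in retaining lines (0.0716) were lost too.

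**Figure D2:**
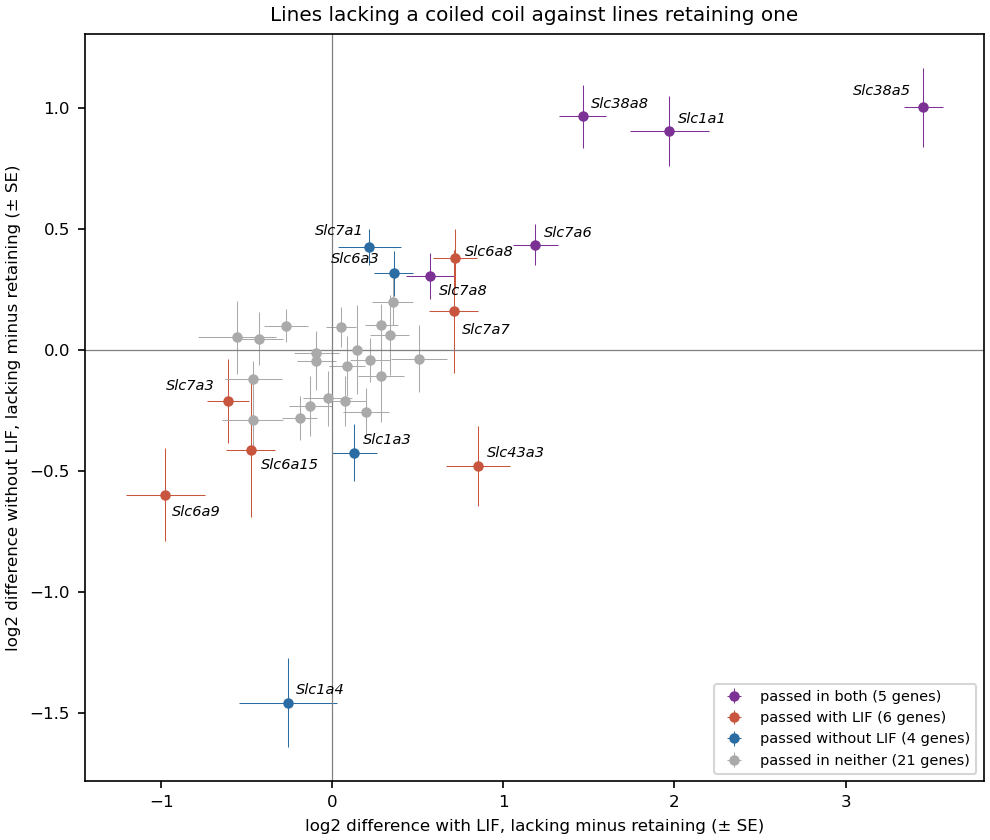
Difference in log2 signal between the 3 lines lacking a coiled coil and the 5 retaining one, with LIF (horizontal) and without LIF (vertical), for 36 transporter genes with the standard error of each fit; colours give where the difference passed. Slc38a5 lies farthest to the right (3.46), Slc1a4 lowest (-1.46), and 21 genes passed in neither condition.

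Glutamate, aspartate and small neutral amino acids are carried by the Slc1 family, of which 4 genes were kept. Slc1a1, the neuronal and epithelial glutamate transporter that also takes up cysteine, was higher in all lacking lines than in any retaining line. With LIF its signal was 6.93, 6.00, 6.02, 6.12 and 5.89 in EBRTcH3, MBD3a, MBD3b, MBD3c and MBD-deleted. The empty vector, coiled-coil-deleted and doubly deleted lines had 7.98, 7.93 and 8.58. The parental line was thus the highest of the retaining lines, and the gap to the lowest lacking line was 1.00. The difference of the class means was 1.97 ± 0.23 (SE; 3.92-fold, adjusted p = 0.000373).

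Slc1a1 fell after LIF withdrawal in all 8 lines. Its signal without LIF was 5.15 to 5.76 in the 5 retaining lines and 6.03, 6.38 and 6.34 in the empty vector, coiled-coil-deleted and doubly deleted lines, so the classes again did not overlap (difference 0.90 ± 0.14, adjusted p = 0.00171). The fall was -0.85 ± 0.17 in retaining lines (adjusted p = 0.00272) and -1.91 ± 0.22 in lacking lines (adjusted p = 0.00169). The difference of these falls, -1.07 ± 0.28, passed with all lines (adjusted p = 0.0328). It did not pass with the run of titles as a covariate, or without MBD3a, MBD3b, MBD3c, the empty vector line or the doubly deleted line (adjusted p up to 0.148, difference -1.29 to -0.90).

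Slc1a3, the glial glutamate transporter, was found at 6.52 to 7.50 on all arrays. It rose in the retaining lines by 0.43 (adjusted p = 0.018), from 0 in EBRTcH3 to 0.98 in MBD-deleted, and without MBD3b or MBD3c this no longer passed (adjusted p up to 0.0513). In the lacking lines the change was -0.13 (adjusted p = 0.794). After withdrawal it was lower in lacking lines by 0.42 (-0.42 ± 0.12, adjusted p = 0.0286), a call lost without MBD3b, MBD3c, the empty vector line or the doubly deleted line (adjusted p up to 0.113).

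The exchangers of small neutral amino acids, Slc1a4 (ASCT1; alanine, serine, cysteine and threonine) and Slc1a5 (ASCT2, a main route of glutamine uptake), are described next. Slc1a4 had signals with LIF of 8.93, 7.79, 8.02, 8.06 and 8.16 in EBRTcH3, MBD3a, MBD3b, MBD3c and MBD-deleted, and of 8.56, 7.28 and 7.96 in empty vector, coiled-coil-deleted and doubly deleted. The classes overlapped, and their difference did not pass (-0.26 ± 0.29, adjusted p = 0.605). Without LIF the retaining lines lay at 8.32, 8.09, 8.37, 8.08 and 8.77 and the lacking lines at 7.24, 6.78 and 6.58. All lacking lines were now below all retaining lines, by 1.46 ± 0.18 between the means (2.75-fold, adjusted p = 0.000463).

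The response of Slc1a4 was 0.13 in retaining lines (adjusted p = 0.588), with EBRTcH3 at -0.61 and MBD-deleted at 0.61 as the extremes, and -1.07 ± 0.22 in lacking lines (adjusted p = 0.0266). Their difference of -1.20 ± 0.28 passed (adjusted p = 0.0175). Neither the fall in the lacking lines nor this difference passed without the empty vector line or without the doubly deleted line (adjusted p up to 0.19 and 0.0917).

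Slc1a5 fell in all 8 lines, by 0.91 ± 0.10 over them (1.88-fold, adjusted p = 0.000412). Its signal with LIF was 9.74 in EBRTcH3, 9.53 to 9.56 in the other retaining lines, and 9.63, 8.65 and 9.09 in empty vector, coiled-coil-deleted and doubly deleted. After 12 days without LIF it was 8.24 to 8.84 in retaining lines and 8.11 to 8.46 in lacking lines. The responses were -0.82 to -1.31 in the retaining lines and -1.17, -0.26 and -0.98 in the lacking lines, and the difference between the classes did not pass (0.17, adjusted p = 0.651). In the lacking lines alone the fall of -0.80 passed (adjusted p = 0.0231), but not without the empty vector or the doubly deleted line (adjusted p up to 0.183).

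**Figure D3:**
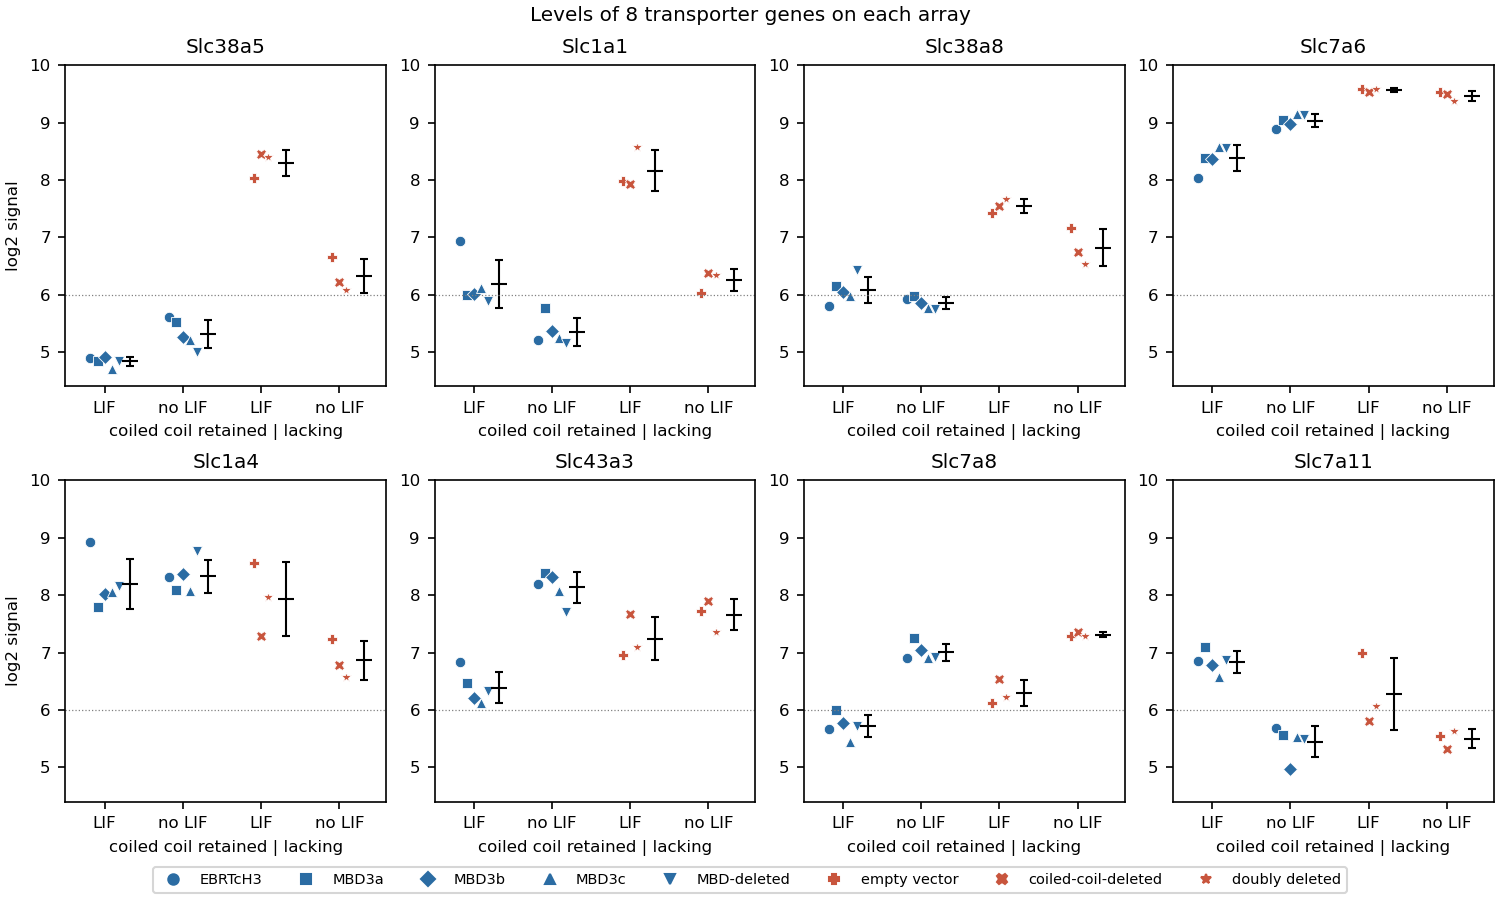
Log2 signal of 8 transporter genes on each of the 16 arrays, by class of line and culture condition; symbols mark the lines, bars the mean ± SD of a group (n = 5 or 3), and the dotted line the level of 6 that members had to reach. In the panel of Slc38a5 the lacking lines with LIF sit at 8.04 to 8.45 and the retaining lines at 4.71 to 4.91, and in the panel of Slc1a4 the classes overlap with LIF and separate without it.

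The heteromeric transporters pair the heavy chain Slc3a2 with a light chain, and 5 light chain genes were kept. Slc3a2 stayed between 11.48 and 12.25 on all arrays and fell slightly, by 0.25 ± 0.08 over the 8 lines (adjusted p = 0.039), a call lost without EBRTcH3, MBD3a, MBD3b, MBD3c, empty vector or doubly deleted (adjusted p up to 0.104). The light chains moved in different directions around it: in the retaining lines Slc7a6, Slc7a7 and Slc7a8 rose and Slc7a5 and Slc7a11 fell.

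Slc7a11, the cystine and glutamate exchanger that supplies cysteine for glutathione, fell in all 8 lines, by 1.16 ± 0.15 (2.24-fold, adjusted p = 0.000808). With LIF its signal was 6.86, 7.10, 6.78, 6.58 and 6.87 in EBRTcH3, MBD3a, MBD3b, MBD3c and MBD-deleted and 6.99, 5.80 and 6.06 in empty vector, coiled-coil-deleted and doubly deleted. On the arrays without LIF it was 5.68, 5.56, 4.97, 5.53 and 5.50 in the retaining lines and 5.55, 5.32 and 5.63 in the lacking lines. With LIF the empty vector line was therefore among the retaining lines while the other lacking lines were below all of them, and without LIF all 8 lines lay under 6, so the gene was kept through its level with LIF. The fall passed in retaining lines (-1.39 ± 0.15, adjusted p = 3.73e-05). In lacking lines it was -0.78 ± 0.19 (adjusted p = 0.0584), made up of -1.44, -0.48 and -0.43 in the empty vector, coiled-coil-deleted and doubly deleted lines. The difference in response was 0.61 ± 0.25 (adjusted p = 0.139).

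Slc7a5 (LAT1), the exchanger that brings in leucine and other large neutral amino acids, fell in all 8 lines by 0.59 ± 0.09 (1.5-fold, adjusted p = 0.00226). Its signal was 11.19 to 11.54 in retaining and 10.99 to 11.46 in lacking lines with LIF, and 10.55 to 11.04 and 10.53 to 10.62 without. The classes overlapped in both conditions, and the difference in response was -0.10 (adjusted p = 0.794). Its fall passed in the retaining lines alone (-0.55, adjusted p = 0.00339). In the lacking lines alone (-0.65, adjusted p = 0.0447) it did not pass without EBRTcH3, MBD3a, MBD3b or any of the 3 lacking lines (adjusted p up to 0.262).

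Slc7a8 (LAT2), which carries neutral amino acids both small and large, rose in every line. Its signal with LIF was 5.67, 5.99, 5.78, 5.44 and 5.72 in EBRTcH3, MBD3a, MBD3b, MBD3c and MBD-deleted and 6.12, 6.54 and 6.22 in empty vector, coiled-coil-deleted and doubly deleted. Without LIF it was 6.90, 7.25, 7.04, 6.91 and 6.92 in the retaining lines and 7.29, 7.36 and 7.28 in the lacking lines. The lines rose by 0.82 to 1.47 each, which gave a rise of 1.18 ± 0.07 (2.27-fold, adjusted p = 3.01e-05). It passed in each class alone (1.28 and 1.02, adjusted p = 7.37e-07 and 0.000609), whichever of the 8 lines was left out. The lacking lines were higher than all retaining lines with LIF (0.57 ± 0.14, adjusted p = 0.019) and without it (0.31 ± 0.09, adjusted p = 0.0443). Without the coiled-coil-deleted line the difference with LIF did not pass (adjusted p = 0.101), and the difference without LIF failed when any line other than MBD3a was left out (adjusted p up to 0.145) and with the line as a random block (0.0898).

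The light chains Slc7a6 and Slc7a7 (y+LAT2 and y+LAT1) exchange cationic for neutral amino acids. Slc7a6 had a signal with LIF of 8.03, 8.38, 8.36, 8.58 and 8.56 in EBRTcH3, MBD3a, MBD3b, MBD3c and MBD-deleted, and of 9.59, 9.53 and 9.59 in empty vector, coiled-coil-deleted and doubly deleted. Without LIF the retaining lines had 8.89, 9.04, 8.97, 9.15 and 9.13, and the lacking lines 9.54, 9.50 and 9.37. The lacking lines were thus high in both conditions, while the retaining lines rose part of the way towards them. The class difference was 1.19 ± 0.13 with LIF (2.28-fold, adjusted p = 0.000229) and 0.43 ± 0.09 without it (adjusted p = 0.00561). The response was 0.65 ± 0.08 in retaining lines (adjusted p = 6.01e-05) and -0.10 ± 0.10 in lacking lines (adjusted p = 0.719), and the difference of -0.75 ± 0.12 passed (adjusted p = 0.00321).

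Slc7a7 was higher without LIF in all 8 lines, by 0.73 ± 0.12 over them (1.66-fold, adjusted p = 0.0026). With LIF its signal was 9.51 in EBRTcH3, 10.03 to 10.14 in the other retaining lines and 10.61 to 10.75 in the lacking lines, which were higher by 0.71 ± 0.14 (adjusted p = 0.00761). After withdrawal it was 10.06 in EBRTcH3, 10.95 to 11.42 in the other retaining lines and 10.83 to 11.29 in the lacking lines, and the classes overlapped. EBRTcH3 was the lowest line in both conditions. The response of 0.93 in retaining lines passed (adjusted p = 7.49e-05), that of 0.38 in lacking lines did not (adjusted p = 0.219), and their difference of -0.55 did not pass either (adjusted p = 0.0758). Slc7a6os, the neighbour of Slc7a6 on chromosome 8, stayed at 8.49 to 8.91 on all arrays. It changed by -0.21 in the retaining lines (adjusted p = 0.0364; up to 0.0951 when a retaining line was left out) and differed between the classes by -0.02 with LIF and 0.09 without it.

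Among the carriers of arginine and lysine, Slc7a1 (CAT1) was lower without LIF in all 8 lines, by 0.92 ± 0.11 (1.9-fold, adjusted p = 0.000531). Its signal with LIF was 10.63, 10.32, 10.48, 10.58 and 10.26 in EBRTcH3, MBD3a, MBD3b, MBD3c and MBD-deleted and 11.22, 10.47 and 10.32 in empty vector, coiled-coil-deleted and doubly deleted. After 12 days without LIF it was 9.36 to 9.58 in retaining lines and 9.86, 9.91 and 9.86 in lacking lines. The empty vector line was thus the highest of all lines with LIF, and without LIF all lacking lines were higher than any retaining line (0.42 ± 0.08, adjusted p = 0.00311). With all arrays in 1 fit and the line as a random block this difference did not pass (adjusted p = 0.0627). The fall was 2-fold in retaining lines (adjusted p = 0.000149) and 1.73-fold (-0.79) in lacking lines (adjusted p = 0.0331), the latter lost without MBD3b, MBD3c or any of the 3 lacking lines (adjusted p up to 0.206).

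Slc7a3 (CAT3) had a signal with LIF of 11.09, 11.08, 11.08, 10.79 and 11.10 in EBRTcH3, MBD3a, MBD3b, MBD3c and MBD-deleted, and of 10.59, 10.18 and 10.49 in empty vector, coiled-coil-deleted and doubly deleted. All lacking lines were lower than the retaining lines, by 0.61 ± 0.12 between the means (-0.61, 1.52-fold, adjusted p = 0.00762). Without LIF the classes overlapped (10.21 to 11.12 and 10.30 to 10.50). The fall of -0.41 in retaining lines (adjusted p = 0.0242) ran from -0.88 in EBRTcH3 to 0.02 in MBD-deleted, and did not pass without EBRTcH3, MBD3a or MBD3b (adjusted p up to 0.096). Slc7a4, a related gene, exceeded 6 on a single array (6.14, MBD3a without LIF) and passed in no comparison.

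The Slc6 family couples uptake to sodium and chloride, and 4 members for glycine, proline and other neutral amino acids were kept. Slc6a9 (GlyT1), the glycine transporter, fell in all 8 lines by 1.15 ± 0.13 (2.22-fold, adjusted p = 0.000402). Its signal with LIF was 9.56, 9.26, 9.33, 9.41 and 9.35 in EBRTcH3, MBD3a, MBD3b, MBD3c and MBD-deleted, and 9.14, 7.79 and 8.29 in empty vector, coiled-coil-deleted and doubly deleted. On the arrays without LIF it was 8.00, 7.90, 7.98, 7.91 and 8.67 in the retaining lines and 7.85, 7.36 and 7.27 in the lacking lines. The lacking lines were below all retaining lines in both conditions. The empty vector line came close to them (gaps of 0.12 with LIF and 0.05 without), while the MBD-deleted line kept the highest signal without LIF. The difference with LIF, -0.98 ± 0.23, passed (adjusted p = 0.0179), except with the run as a covariate (0.0667) and without coiled-coil-deleted or doubly deleted (up to 0.0771), and that without LIF, -0.60 ± 0.19, did not (adjusted p = 0.0536). The fall was -1.29 in retaining lines (adjusted p = 4.36e-05) and -0.91 in lacking lines (adjusted p = 0.0245; up to 0.193 without empty vector or doubly deleted). A further probe set of Slc6a9, the only second probe set of a kept gene, had a mean signal of 4.67 and changed by -0.14 in the retaining lines.

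Slc6a15, a carrier of branched-chain amino acids and proline, rose in all 8 lines by 0.80 ± 0.11 (1.74-fold, adjusted p = 0.00141). Without LIF its signal was 7.16 in EBRTcH3, 8.19 to 8.60 in the other retaining lines and 7.60 to 7.89 in the lacking lines. EBRTcH3 rose least (0.08) and MBD-deleted most (1.36). The mean rise was 0.78 in retaining lines (adjusted p = 0.00142) and 0.84 in lacking lines (adjusted p = 0.0378; up to 0.216 without MBD3a, MBD3b, MBD3c or any of the 3 lacking lines). With LIF the lacking lines were lower by 0.48 (-0.48 ± 0.14, adjusted p = 0.0493), with 6.62 to 7.07 against 7.08 to 7.59. That call was lost without MBD3a, MBD3b, MBD3c or any of the 3 lacking lines (adjusted p up to 0.144), and with the line as a random block (0.169). The proline transporter gene Slc6a7 and the vesicular carrier gene Slc6a17 passed in no comparison, with changes after LIF withdrawal between -0.37 and 0.17 in single lines.

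Of the 4 kept Slc6 genes for other substrates, the creatine transporter gene Slc6a8 differed between the classes and the taurine transporter gene Slc6a6 responded to LIF. Slc6a8 had a signal with LIF of 10.01 to 10.37 in retaining lines and 10.59, 11.08 and 10.92 in empty vector, coiled-coil-deleted and doubly deleted, a difference of 0.72 ± 0.13 (1.64-fold, adjusted p = 0.00416). Without LIF it was 10.11 to 10.58 and 10.51 to 10.85, where the difference of 0.38 did not pass (adjusted p = 0.053). Slc6a6 was higher without LIF in all 8 lines, by 0.30 ± 0.06 (1.23-fold, adjusted p = 0.00631), with a range of 9.84 to 10.32 with LIF and of 10.13 to 10.48 without it. The rise of Slc6a6 passed in the retaining lines alone (0.37, adjusted p = 0.00175) but not in the lacking lines alone (0.19, adjusted p = 0.367). Slc6a3 was higher in lacking lines without LIF by 0.32 (adjusted p = 0.0371), with a single array above 6 (6.06), in the group that was higher and through which it was kept, and a call that failed when any line other than MBD3a was left out (adjusted p up to 0.161). The GABA transporter gene Slc6a13, above 6 on 2 arrays, passed in no comparison.

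The Slc38 family carries glutamine, asparagine, alanine and related amino acids with sodium, and 10 of its genes were kept. Slc38a5 (SNAT5), which moves glutamine, asparagine, serine and glycine in exchange for protons, had the largest class difference of all members. With LIF its signal was 4.90, 4.84, 4.91, 4.71 and 4.85 in EBRTcH3, MBD3a, MBD3b, MBD3c and MBD-deleted. The empty vector, coiled-coil-deleted and doubly deleted lines had 8.04, 8.45 and 8.40. The gap between the closest lines of the classes was 3.13, and the difference of the means was 3.46 ± 0.11 (11-fold, adjusted p = 1.19e-07). It was kept through the lacking lines alone, where it is high, so its differences between the classes are given as descriptions. The retaining signals lay little above the level of 4.24 to 4.38 that separated low from tested probe sets on an array, so the fold rests on a low signal.

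After LIF withdrawal the classes moved towards each other in Slc38a5. The retaining lines rose to 5.61, 5.52, 5.26, 5.21 and 5.00, and the lacking lines fell to 6.66, 6.23 and 6.08. The rise was 0.48 ± 0.13 (adjusted p = 0.016; up to 0.06 without EBRTcH3 or MBD3a) and the fall -1.97 ± 0.17 (3.93-fold, adjusted p = 0.000338). The difference of the responses was -2.45 ± 0.22 (5.47-fold, adjusted p = 0.000123). No retaining line moved down and no lacking line moved up. A difference of 1.00 ± 0.16 between the classes remained without LIF (2-fold, adjusted p = 0.00197), with a gap of 0.47 between the closest lines.

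Slc38a8, a sodium-coupled glutamine carrier, was also higher in lacking lines under both conditions. With LIF its signal was 5.80, 6.15, 6.05, 5.98 and 6.43 in EBRTcH3, MBD3a, MBD3b, MBD3c and MBD-deleted and 7.43, 7.55 and 7.66 in empty vector, coiled-coil-deleted and doubly deleted (difference 1.46 ± 0.14, 2.76-fold, adjusted p = 9.42e-05). After withdrawal it was 5.93, 5.97, 5.86, 5.76 and 5.75 in the retaining lines and 7.17, 6.75 and 6.54 in the lacking lines (difference 0.97 ± 0.13, adjusted p = 0.000705). The classes did not overlap in either condition. It fell over the 8 lines by 0.42 (-0.42 ± 0.13, adjusted p = 0.0364) and in the lacking lines by 0.73 (-0.73, adjusted p = 0.0466). The former passed without EBRTcH3 and in no other fit with 1 line left out (adjusted p up to 0.0849), and the latter passed only without EBRTcH3 or MBD-deleted (adjusted p up to 0.286). The difference in response was -0.50 (adjusted p = 0.164).

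Slc38a1, Slc38a2 and Slc38a4 lie side by side on chromosome 15 in the reference annotation, with no protein-coding gene between them, and did not change together. Slc38a1 (SNAT1), a glutamine carrier, was at 11.12 to 11.60 in retaining and 10.78 to 11.41 in lacking lines with LIF and fell in the retaining lines by 0.35 ± 0.11 (adjusted p = 0.0259), a call lost without EBRTcH3, MBD3a, MBD3b or MBD3c (adjusted p up to 0.0943). Slc38a2 (SNAT2), which amino acid shortage is known to induce, stayed between 11.31 and 11.85 on all arrays. Its change was -0.07 in retaining lines (adjusted p = 0.63), 0.30 in lacking lines (adjusted p = 0.247) and 0.07 over all lines (adjusted p = 0.613). Slc38a4 (SNAT4), an imprinted gene expressed from the paternal allele, was higher without LIF in all 8 lines. Its range was 10.97 to 11.52 with LIF and 11.36 to 12.37 without it, a rise of 0.46 ± 0.11 (1.37-fold, adjusted p = 0.0121), with EBRTcH3 highest among all arrays at 12.37 and the smallest change, 0.02, in MBD-deleted. The rise of Slc38a4 passed in the retaining lines alone (0.61, adjusted p = 0.00177) but not in the lacking lines alone (0.21, adjusted p = 0.581).

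Of the other Slc38 genes, the glutamine transporter gene Slc38a3 rose by 0.30 over the 8 lines (adjusted p = 0.0463) and by 0.35 in the retaining lines (adjusted p = 0.0416). Both calls depended on most single lines: the first was lost without MBD3a, MBD3b, MBD3c, empty vector or MBD-deleted (adjusted p up to 0.114), the second without MBD3a, MBD3b, MBD3c, MBD-deleted or coiled-coil-deleted (up to 0.146). Slc38a9, the lysosomal arginine sensor of mTORC1, was at 7.29 to 7.84 on all arrays and passed in no comparison (changes of 0.08 in retaining and -0.21 in lacking lines, adjusted p = 0.636 and 0.554). Slc38a6, Slc38a7 and Slc38a10 passed in none either, with signals of 6.88 to 7.47, 9.32 to 9.87 and 8.32 to 8.85.

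The 2 kept Slc36 genes, which couple amino acids to protons and act in part on lysosomes, moved in opposite directions. Slc36a4 was at 5.01 to 5.72 in retaining lines with LIF and rose to 5.42 to 5.96 (0.42 ± 0.08, adjusted p = 0.00134). In lacking lines it went from 5.56, 6.03 and 5.77 in empty vector, coiled-coil-deleted and doubly deleted to 5.53, 5.91 and 5.57 (-0.12, adjusted p = 0.672). No lacking line rose and no retaining line fell. The difference of -0.54 ± 0.13 passed (adjusted p = 0.0189), except without the replicate block on lines (0.136) and without coiled-coil-deleted or doubly deleted (up to 0.079). The gene was kept through the coiled-coil-deleted array with LIF (6.03), which itself makes the response of the lacking lines more negative, so this difference is given as a description. Slc36a1 fell in the retaining lines, from a range of 6.96 to 7.53 with LIF to one of 6.69 to 7.05 without it (-0.44 ± 0.09, adjusted p = 0.00351). In the lacking lines it changed by 0.01 to 0.05, and the difference of 0.47 did not pass (adjusted p = 0.0703).

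All 3 Slc43 genes rose in the retaining lines and over the 8 lines. Slc43a3 moved most. Its signal with LIF was 6.83, 6.46, 6.21, 6.12 and 6.33 in EBRTcH3, MBD3a, MBD3b, MBD3c and MBD-deleted and 6.96, 7.67 and 7.10 in empty vector, coiled-coil-deleted and doubly deleted. After 12 days without LIF it was 8.20, 8.39, 8.31, 8.07 and 7.71 in the retaining lines and 7.72, 7.89 and 7.36 in the lacking lines. The lacking lines thus started above all retaining lines (0.85 ± 0.19, 1.81-fold, adjusted p = 0.0121; 0.0592 without coiled-coil-deleted) and ended among or below them (-0.48, adjusted p = 0.0681). The rise was 1.75 ± 0.13 in retaining lines (3.35-fold, adjusted p = 2.35e-06) and 0.41 ± 0.16 in lacking lines (adjusted p = 0.247). The difference of -1.33 ± 0.21 passed (2.52-fold, adjusted p = 0.00243).

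Slc43a1 and Slc43a2 (LAT3 and LAT4), which carry leucine, phenylalanine and other large neutral amino acids without exchange, were higher without LIF in all 8 lines. Slc43a1 ranged from 7.82 to 8.29 with LIF and from 8.19 to 8.67 without it, a rise of 0.51 ± 0.08 (1.43-fold, adjusted p = 0.00236). Slc43a2 ranged from 7.63 to 8.22 and from 8.12 to 8.86, a rise of 0.69 ± 0.10 (1.61-fold, adjusted p = 0.00186). Both rises passed in the retaining lines alone (0.49 and 0.79, adjusted p = 0.00317 and 0.000414). Neither passed in the lacking lines alone (0.54 and 0.51, adjusted p = 0.059 and 0.122). The difference in response was 0.05 (adjusted p = 0.904) for Slc43a1 and -0.28 (adjusted p = 0.425) for Slc43a2. Slc43a1 and Slc43a3 lie on chromosome 2 with 1 protein-coding gene between them, and Slc43a1 did not share the class difference of Slc43a3 with LIF (-0.09, adjusted p = 0.643).

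The genes around the transporters were described from 6 further lists. The list of amino acid response genes covers the ATF4 and CHOP response, and also holds Atf4 itself and the kinase genes Eif2ak3 and Eif2ak4. Of its 27 tested genes 20 fell over the 8 lines, against 9.89% of all tested genes. The median change of the 27 was -0.80, beside 0.02 over all tested genes. Nupr1, a stress-induced chromatin protein (-2.27), the folate enzyme gene Aldh1l2 (-2.14), the glutathione-degrading enzyme gene Chac1 (-1.99) and the lipoprotein receptor gene Vldlr (-1.28) fell most. None of the 27 rose, and limma gave none with a rise at an unadjusted p under 0.05. In the retaining lines 21 fell (median -0.99), against 14.5% of all tested genes. In the lacking lines 9 fell (median -0.63), against 1.22%, led by Chac1 at -1.66 (adjusted p = 0.012). The median response of the 27 genes was -1.07, -1.02, -0.99, -1.21 and -0.71 in EBRTcH3, MBD3a, MBD3b, MBD3c and MBD-deleted, and -0.86, -0.18 and -0.78 in empty vector, coiled-coil-deleted and doubly deleted. The coiled-coil-deleted line thus had the smallest median fall. Slc6a9 and Slc1a5 also fell least in it (-0.43 and -0.26), whereas Slc7a11 and Slc7a1 fell least in doubly deleted (-0.43 and -0.46, beside -0.48 and -0.56 in coiled-coil-deleted) and Slc7a5 in MBD-deleted (-0.15 beside -0.37).

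With LIF, 14 of the 27 amino acid response genes were lower in the lacking lines, and without LIF 8 were lower and 3 higher. Of all tested genes 6.48% were lower there with LIF, and 12.4% were lower and 8.55% higher without it. Chac1 stood at 8.42 to 9.22 in retaining lines with LIF and at 9.27, 7.09 and 7.78 in empty vector, coiled-coil-deleted and doubly deleted. Atf4, the gene of the transcription factor itself, named here after its values were seen, stood at 10.27 to 10.87 and at 10.03, 9.50 and 9.94. The signal of Slc7a11 and Slc1a5 in the empty vector line with LIF lay within the range of the retaining lines, and that of Chac1 just above it.

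**Figure D4:**
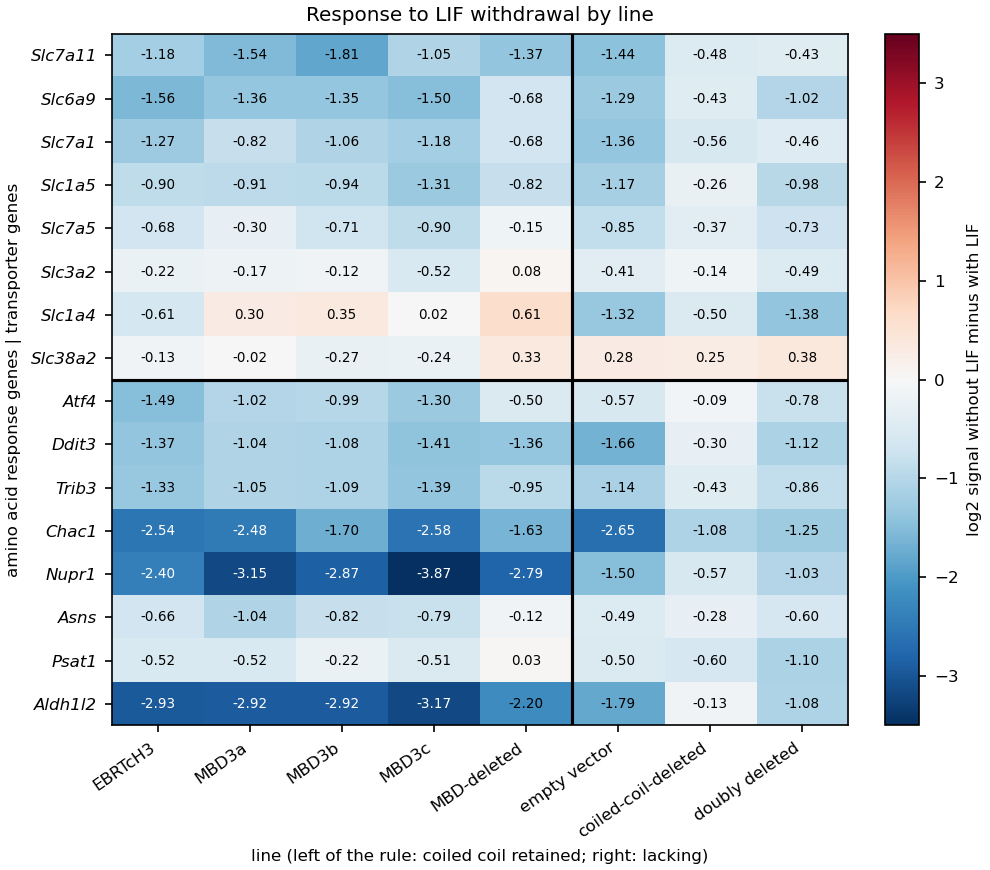
Change in log2 signal after LIF withdrawal in each of the 8 lines for 8 transporter genes that ATF4 is known to regulate or that fell (above the horizontal rule) and for 8 amino acid response genes (below it); blue is lower and red higher without LIF, and the vertical rule parts retaining from lacking lines. The coiled-coil-deleted line has the palest cell for Atf4, Ddit3, Trib3, Chac1, Nupr1, Aldh1l2 (-0.13), Slc6a9 and Slc1a5. For the other genes another line is paler, as for Slc7a11 (-0.48 beside -0.43 in doubly deleted). Slc38a2 lies between -0.27 and 0.38.

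The other lists moved in mixed directions, and their counts over the 8 lines stand beside 15.1% of all tested genes higher and 9.89% lower. Of 15 glutathione and NRF2 genes 2 rose and 2 fell over the 8 lines, led by Cd44 (1.27), which encodes a surface partner of the cystine exchanger. Cd44 rose by 1.25 to 2.67 in single retaining lines and by 0.07 to 0.23 in single lacking lines. With LIF the glutathione synthetase gene Gss was lower in lacking lines by 1.14 (-1.14, adjusted p = 0.000282). Of 12 threonine, glycine and folate genes 4 rose and 1 fell, led by the adenosylhomocysteinase gene Ahcy (0.87). Of 14 glutamine, glutamate and branched-chain metabolism genes 2 rose and 4 fell, led by the transaminase genes Gpt2 (-0.76) and Bcat1 (-0.68). Of 31 genes of amino acid sensing by mTORC1 6 rose and 8 fell, led by the arginine sensor gene Castor1 (1.61, adjusted p = 0.000195).

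Castor1 rose in each class (1.88 and 1.17, adjusted p = 1.75e-06 and 0.00604). Of 18 tested amino acid and peptide transporters of other families 3 rose and 4 fell, led by the aromatic amino acid transporter gene Slc16a10 (1.06), the mitochondrial glutamate carrier gene Slc25a22 (0.89) and the peptide transporter gene Slc15a1 (-0.86). Slc16a10 rose by 1.50 in retaining lines, and the response differed between the classes by -1.18 (adjusted p = 0.00559). Median changes over the 8 lines were between 0.01 and 0.15 for these 5 lists, beside 0.02 over all tested genes.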

How the data were processed

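Total RNA of 16 cultures was labelled with an Affymetrix kit and hybridised to 1-colour expression arrays. The deposited values are log2 signals per probe set, made by the authors with RMA in affy per the submitters' processing notes. No source used here gives versions or how probe sets were defined, and scanner files were not analysed. Arrays were not normalized again, and their number limits the precision.

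Of 65770 probe sets 30439 carried a single gene symbol, 2146 several and 33158 none, and 27 had no value. Symbols were updated through Entrez identifiers in the RefSeq gene table of GRCm38.p6 (22653 matched, 827 updated). The probe set with the highest mean stood for a gene, and 22872 genes above the 40th percentile of an array (log2 4.24 to 4.38) on at least 3 arrays were tested.

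Tests were made with limma 3.58.1 in R 4.3.3. LIF withdrawal was fitted with the line as a block, and both classes shared 1 estimate of the spread. Class differences were fitted on the 8 arrays of a condition. The p-values were adjusted by Benjamini-Hochberg over all 22872 genes, with 0.05 as the threshold. The pairing of arrays is by cell line, from the titles, and deviations of paired arrays from their group means correlated at -0.05 to 0.28. Named were, for each comparison, up to 12 passing members per direction by size of change, members fixed for their role, and up to 4 passing genes of each list. The code was tested on simulated data. The members, gene lists, markers and tests were chosen with earlier results of these data known. Alternatives covered probe set choice, filters, normalization, array weights, empirical Bayes settings, the run of titles, the block and each line left out. Promoters were searched for letters in the RefSeq table.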

Additional observations from a re-analysis of the deposited data

Results flagged for a closer look

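Of 74 groups of 5 retaining lines in 1 condition (37 genes, with and without LIF), 9 had 1 line farther from the others than Dixon's critical value of 0.71 allows, where chance alone gives about 1 in 20. The wild type EBRTcH3 was that line in 5 of them. With LIF its signal was 6.93 for Slc1a1, 9.74 for Slc1a5 and 9.51 for Slc7a7. Without LIF it was 11.25 for Slc38a1 and 7.16 for Slc6a15. The MBD-deleted line stood apart in Slc6a6 with LIF (9.84) and in Slc6a9 without it (8.67), MBD3b in Slc7a11 without LIF (4.97), and MBD3c in Slc7a3 with LIF (10.79).

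For 6 genes the change without LIF was not the same in both classes by limma's test of the difference, lacking minus retaining: Slc38a5 (-2.45), Slc43a3 (-1.33), Slc1a4 (-1.20), Slc1a1 (-1.07), Slc7a6 (-0.75) and Slc36a4 (-0.54). Slc36a4 was kept through 1 array alone, that of the coiled-coil-deleted line with LIF, so its difference is a description. Slc38a5 was kept through the lacking lines alone, so its difference is a description too. Slc36a1 moved down in all 5 retaining lines and up in all 3 lacking lines, a difference of 0.47 that did not pass that test (adjusted p = 0.0703).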

How the results depend on the processing

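Over 3864 comparisons of a gene's result under an alternative, 3503 kept the side of the threshold, 233 lost the call and 127 gained one. Changes of direction where a gene passed in neither fit are counted among the 3503. In 1 comparison the direction reversed for a gene that passed in the main or the alternative fit. That was Slc7a3, whose change in retaining lines was 0.02 within the second run of titles, where MBD-deleted is the only retaining line. Within that run 0 transporter genes passed in limma in any of the 6 comparisons, with 10 to 16 at an unadjusted p under 0.05; it holds 3 lines, 1 of them retaining. Within the first run, where empty vector is the only lacking line and is assumed to vary like the others, 4 passed in the lacking lines, 1 for the difference in response, 3 with LIF and 3 without. These within-run counts say nothing of stability. Counting all 57 matching genes that were tested, an alternative chosen after seeing the data, gave 21, 26, 10, 7, 12 and 9. With array weights 18 passed for the difference in response and 19 with LIF; the cause was not tested. With each line left out in turn, 14 to 19 passed over the 8 lines (17 with all), 18 to 24 in retaining lines (22), 3 to 11 in lacking lines (10), 3 to 10 for the difference in response (6), 7 to 15 with LIF (11) and 6 to 10 without (9). Called in every one of those fits were 14, 17, 3, 3, 7 and 6 of these genes. Without the replicate block on lines, 18, 23, 8 and 5 genes passed over the 8 lines, in retaining lines, in lacking lines and for the difference; Calls were lost for Slc38a3 over the 8 lines and in retaining lines, for Slc1a4, Slc6a15 and Slc6a9 in lacking lines, and for Slc36a4 in the difference. Signals near log2 5, such as Slc38a5 in retaining lines, bound how well a fold is known.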
